A study of Mus musculus with 12 samples.

Results

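The growth hormone and insulin-like growth factor (IGF) axis was described here through 10 transcripts of mouse liver, taken from the deposited table by gene symbol: Ghr, Stat5a, Stat5b, Socs2, Cish, Igf1, Igfals, Igfbp1, Igfbp2 and Igfbp3. All 10 were among the 19852 genes listed, and all 10 passed the filter on low values that left 10568 genes for testing. Liver RNA of C57BL/6 mice aged 20 weeks was sequenced in 12 libraries, 3 in each of 4 groups: female ARE-Del, female wild-type (WT), male ARE-Del and male WT. The ARE-Del allele lacks the AU-rich element of the interferon-gamma gene Ifng, an element through which the message is normally broken down quickly, and the series title describes the animals as transgenic mice in which IFN gamma is made chronically. The labels name no restriction of the allele to a tissue, the extraction note writes the genotype as ARE-Del-/-, and the WT animals were littermates. No treatment is named for any group. Values are RPKM, read numbers adjusted for transcript length and for sequencing depth, so they can be set side by side between genes.

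Growth hormone reaches the liver through its receptor Ghr, which activates the kinase JAK2 and the transcription factors STAT5A and STAT5B. STAT5 proteins then drive the hepatic genes for IGF-1 and for the acid-labile subunit Igfals, together with Cish and Socs2, whose products feed back on the receptor. IGF-1 circulates bound to IGF binding proteins, much of it in a ternary complex of IGF-1, IGFBP3 and the acid-labile subunit, while IGFBP1 is the binding protein whose hepatic transcription insulin represses. In rodents growth hormone is secreted in a pulsatile pattern that differs between the sexes, and many sex differences of liver transcription depend on it.

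Libraries within a group correlated across genes at r = 0.993 to 0.996, and summed RPKM ran between 173476 and 208647. Read totals are not given, and the ratio of low values placed each library at 0.908 to 1.45 times the depth of female WT 1. The targeted gene Ifng had 0.208, 0.0898 and 0.238 RPKM in female ARE-Del, against 0.0208, 0.011 and 0.0096 RPKM in female WT. Male ARE-Del libraries had 0.0978, 0.123 and 0.0742 RPKM of Ifng and male WT libraries 0.0382, 0 and 0, so all 6 ARE-Del values lay above all 6 WT values, although the gene's total does not show the deleted element. The 12 hepatocyte markers looked up were all listed, with summed levels of 45220 to 49310 RPKM in female ARE-Del, 36970 to 39030 in female WT, 27030 to 36050 in male ARE-Del and 25660 to 27320 in male WT. The library labelled female ARE-Del 2 had 0.0456 RPKM of Xist, the RNA of the inactive X chromosome, where the other 5 female libraries had 33.0 to 45.6 RPKM. Its Y-linked Ddx3y was listed at 0, so the member changes in females are also given without it. The labels do not say beyond the sample number that replicates are separate animals, so p-values measure the spread between these samples.

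In the ARE-Del liver the binding protein genes Igfbp1 and Igfbp2 were higher and the receptor gene Ghr was lower in both sexes. The binding protein gene Igfbp3 passed the test as higher in males alone, and Stat5b in females alone. Igf1, Igfals, Stat5a, Socs2 and Cish did not pass the test in either sex alone. An adjusted p here is that of limma on log2(RPKM + 1), with Benjamini-Hochberg adjustment over the 10568 genes and a threshold of 0.05, and fold changes on that scale understate those of low genes. Averaged over the sexes, 4 members rose (Igfbp1, Igfbp2, Igfbp3 and Stat5b) and 2 fell (Ghr and Igfals), against 35.9% and 6.6% of all tested genes, and 42.5% of all genes passed in either direction. In females 3 members rose and 1 fell, where 25.8% of genes rose, 5.53% fell and 31.3% passed. In males 3 rose and 1 fell, where 19.5% rose, 2.04% fell and 21.5% passed. The median log2 change of the 10 members was 0.29 in females, 0.11 in males and 0.09 over both, beside 0.09, 0.10 and 0.09 for all tested genes. With background shares of this size, the number of members that passed in either direction is not a result about the axis, and the values below describe its genes one by one.

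The direction of small changes depended on the scale. Quantile normalization moved the median change of all genes by -0.16 in females and -0.14 in males, and median-of-ratios scaling moved it by -0.12 in both. Of the genes that passed, 82.3% were higher in female ARE-Del as deposited, 39.3% after quantile normalization and 46.7% after median-of-ratios scaling. In males the shares were 90.5%, 44.5% and 51.2%.

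**Figure D1:**
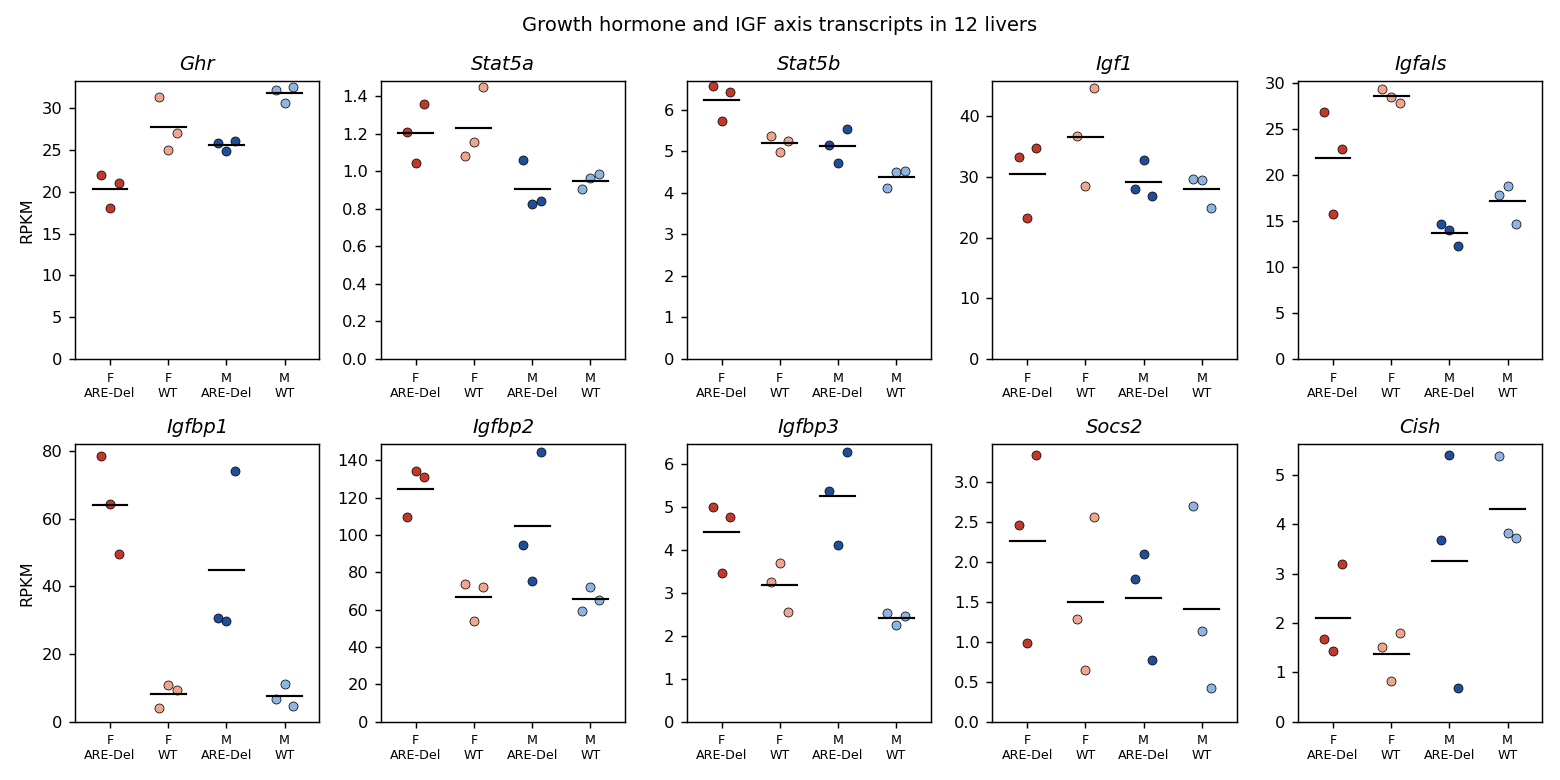
RPKM of the 10 genes (vertical axis, from 0) in each of the 12 livers, with points for libraries and a line for the mean of each group of 3; F and M stand for female and male. Igfbp1 and Igfbp2 separate all ARE-Del from all WT points, whereas the Socs2 and Cish points of ARE-Del and WT overlap within each sex.

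Igfbp1, the insulin-repressed binding protein that sequesters IGF-1, was the member with the largest difference. It was at 78.5, 64.3 and 49.6 RPKM in female ARE-Del livers, against 4.08, 10.9 and 9.47 RPKM in female WT livers. Male ARE-Del livers had 30.8, 29.8 and 74.1 RPKM and male WT livers 6.69, 11.1 and 4.77 RPKM. The lowest of the 6 ARE-Del libraries stood at 29.8 RPKM and the highest of the 6 WT libraries at 11.1 RPKM, so genotypes did not overlap in either sex. The mean was 64.2 ± 14.4 RPKM in female ARE-Del and 8.16 ± 3.61 RPKM in female WT (SD, n = 3 each), a ratio of 7.86. In males it was 44.9 ± 25.3 RPKM in ARE-Del and 7.503 ± 3.22 RPKM in WT (SD, n = 3 each), a ratio of 5.99. The log2 change was 2.90 ± 0.39 in females (SE, limma adjusted p = 0.000116) and 2.37 ± 0.39 in males (adjusted p = 0.0011), and the gene passed under every alternative tried. Without female ARE-Del 2 the female value was 2.88 (adjusted p = 0.000694). The difference between the sexes in this change was 0.53 ± 0.56 on the log2 scale (95% interval -0.68 to 1.74, adjusted p = 0.84). Within male ARE-Del, library 3 stood far above the other two, and without it the male change was 1.95.

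Igfbp2, the most abundant of the 10 transcripts, encodes a binding protein that hepatocytes release into plasma. Female ARE-Del livers had 109, 134 and 131 RPKM and female WT livers 73.6, 54.1 and 72.1 RPKM. Male ARE-Del livers had 94.8, 75.2 and 144 RPKM, against 59.4, 72.0 and 65.4 RPKM in male WT livers. All 6 ARE-Del libraries again exceeded all 6 WT libraries, although male ARE-Del 2 was only slightly above the highest WT value. On the log2 scale it rose by 0.90 ± 0.20 in females (SE, limma adjusted p = 0.00425) and 0.62 ± 0.20 in males (adjusted p = 0.0445). The female call held in all 20 alternatives, at 0.85 (adjusted p = 0.0172) without female ARE-Del 2, and the male call was lost in 14 of 20. On the other scales the male change was 0.44 by median-of-ratios (adjusted p = 0.15) and 0.50 after quantile normalization (adjusted p = 0.104), neither of which passed. Leaving out male ARE-Del 3 brought the male change to 0.36, and leaving out male ARE-Del 2 brought it to 0.83.

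Igfbp3 encodes the carrier of IGF-1 in the ternary complex and, in rat liver, is transcribed mainly outside hepatocytes. It had 5, 3.46 and 4.76 RPKM in female ARE-Del livers and 3.26, 3.70 and 2.55 RPKM in female WT livers. In males ARE-Del livers had 5.37, 4.10 and 6.26 RPKM, against 2.53, 2.26 and 2.46 RPKM in WT livers. Male genotypes were far apart, whereas female ARE-Del 2 fell inside the female WT range. The log2 change of Igfbp3 was 0.85 ± 0.14 in males (SE, limma adjusted p = 0.00122), with a call in all 20 alternatives, and 0.37 ± 0.14 in females (adjusted p = 0.0682). Without female ARE-Del 2 the female change was 0.51 (adjusted p = 0.0203). The female change minus the male change was -0.48 (95% interval -0.93 to -0.04), with an unadjusted limma p of 0.0353 and an adjusted p of 0.377, so a sex difference in the response did not pass. Endothelial markers, summed over 10 genes, ran between 45.1 and 71.5 RPKM in female ARE-Del and 29.9 and 63.0 in female WT, and between 37.1 and 59.2 in male ARE-Del and 26.5 and 35.7 in male WT. Of these 10, 3 rose in females (1 without female ARE-Del 2, and 1 to 5 with 1 library left out) and 1 in males (1 to 4), where 25.8% and 19.5% of all genes rose, and none was at 0 in a group. Stellate cell markers, also 10 genes, summed to 28.4 to 35.5 RPKM in female ARE-Del and 24.5 to 29.1 in female WT, and to 19.8 to 30.4 in male ARE-Del and 14.3 to 20.1 in male WT. Of the 9 tested, 3 rose in females, 2 in males and 5 over both sexes, where 25.8%, 19.5% and 35.9% of all genes rose. With 1 library left out these counts were 2 to 3, 1 to 3 and 3 to 6. They were 2, 1 and 3 by median-of-ratios and again after quantile normalization. None of the 10 was at 0 in a group. Vwf of the endothelial list passed the filter through female ARE-Del libraries alone, at 0.5505 to 0.6499 RPKM, with at most 0.4832 RPKM in other groups. Col1a1 of the stellate list passed it through ARE-Del libraries alone, with at most 0.3208 RPKM in WT. The counts of rising markers depend in part on that filter and are a description only. Of the immune list, the macrophage genes Emr1 and Clec4f, picked after their values were seen, averaged 15.7 and 55.1 RPKM in female ARE-Del and 3.59 and 33.2 RPKM in female WT, and 7.79 and 41.6 RPKM in male ARE-Del and 2.10 and 19.9 RPKM in male WT. The part of these cell types in the Igfbp3 values was not tested.

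**Figure D2:**
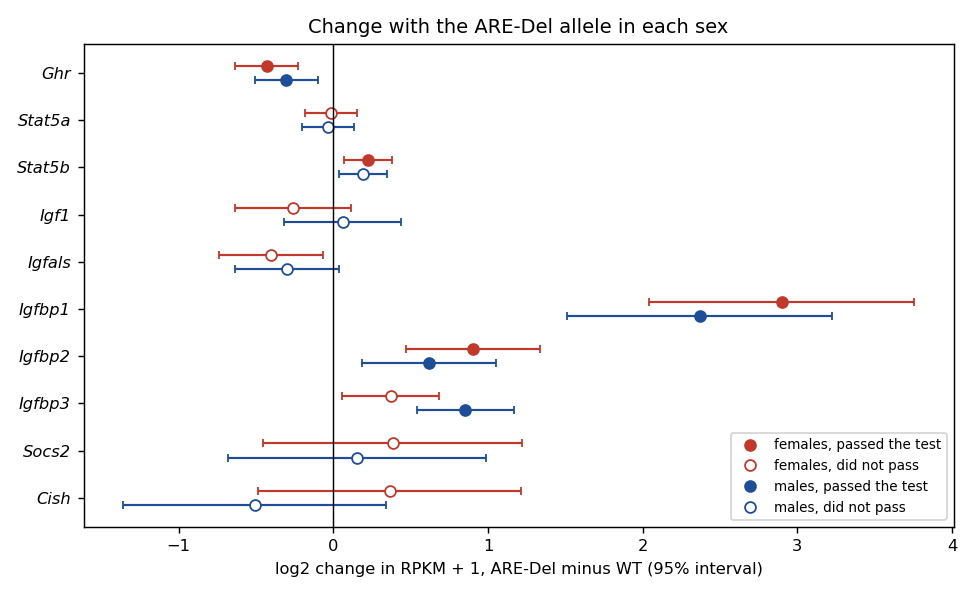
Log2 change in RPKM + 1, ARE-Del minus WT, with its 95% interval for each gene in females and in males; filled points passed the test and open points did not. Igfbp1 stands near 2.9 in females and 2.4 in males, and the intervals of Socs2 and Cish span 0 in both sexes.

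The transcripts Igfbp1 to Igfbp7 summed to 309.9 ± 6.68 RPKM in female ARE-Del and 187 ± 10.8 RPKM in female WT, and to 246 ± 64.5 RPKM in male ARE-Del and 158 ± 13.9 RPKM in male WT (SD, n = 3 each). Female ARE-Del libraries 1, 2 and 3 stood at 302.5, 315.5 and 311.7 RPKM. The make-up of that pool differed as well. Igfbp1 held 20.8 ± 5.03% of it in female ARE-Del and 4.42 ± 2.10% in female WT, and 17.4 ± 5.09% in male ARE-Del and 4.69 ± 1.71% in male WT. Igfbp4, a binding protein outside the 10 that is cleaved by the protease PAPP-A, held 31.8 ± 2.04% in female ARE-Del and 50.2 ± 2.26% in female WT. In males its share was 32.3 ± 6.24% in ARE-Del and 45.9 ± 1.24% in WT, while its own level was 98.7 and 93.7 RPKM in female ARE-Del and WT and 76.9 and 72.7 RPKM in male ARE-Del and WT (limma adjusted p = 0.543 in females and 0.513 in males). Igfbp2 was the largest component in all 6 ARE-Del libraries and came after Igfbp4 in all 6 WT libraries, at 36.2% to 45.2% in ARE-Del libraries and 31.0% to 41.8% in WT libraries. These shares are ratios within a library and do not depend on how libraries are scaled to each other.

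**Figure D3:**
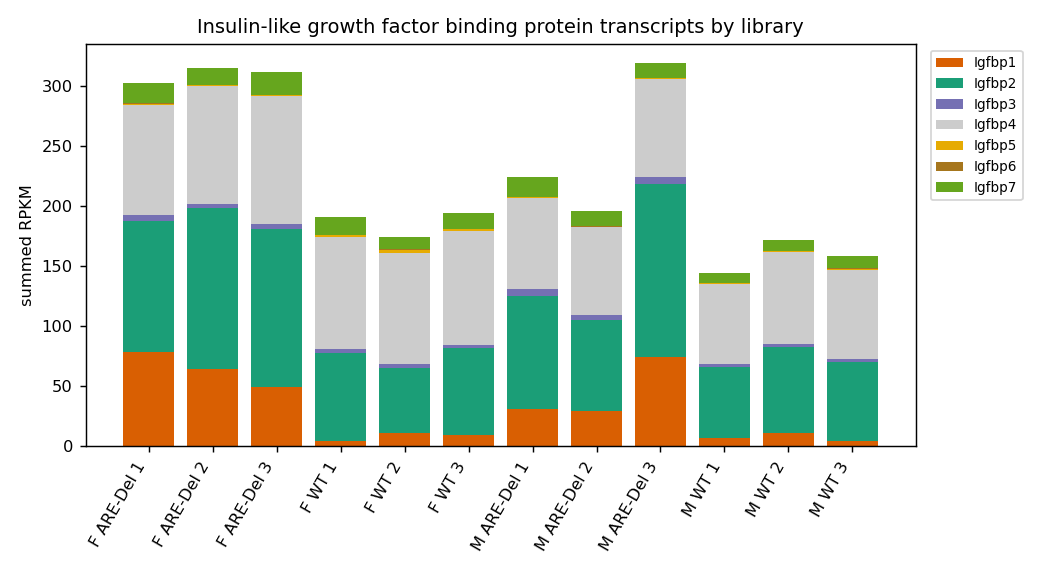
Stacked RPKM of Igfbp1 to Igfbp7 (vertical axis, from 0) in each library; F and M stand for female and male. The orange Igfbp1 segment is thick in the 6 ARE-Del bars and thin in the 6 WT bars, and the grey Igfbp4 segment is of similar height within a sex.

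The promoter window of Igfbp1 is shown because its insulin-responsive control is well studied. The windows here are those of RefSeq on GRCm38.p6, 250 bases before and 50 from the first transcribed base, counted as +1. Windows were found for 9 of the 10 genes, 15 windows in all, and Socs2 had none. CAAAACA, a core sequence bound by FOXO factors, was searched on both strands and stood in 6.28% of all 32851 windows. Among the members it stood in Igfbp1, at -108 to -102, on chr11:7197537-7197836, plus strand, in capitals below.
Igfbp1: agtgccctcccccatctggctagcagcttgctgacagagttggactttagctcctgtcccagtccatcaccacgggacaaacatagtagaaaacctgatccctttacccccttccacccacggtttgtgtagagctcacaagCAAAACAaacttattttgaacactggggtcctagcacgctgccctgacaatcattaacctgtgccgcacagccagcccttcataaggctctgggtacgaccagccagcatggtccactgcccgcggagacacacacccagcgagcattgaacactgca
A match of letters describes the sequence and is not evidence of binding.

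Ghr, the receptor gene, was lower in ARE-Del livers of both sexes. Female ARE-Del livers had 22.0, 18.0 and 21.0 RPKM, against 31.4, 24.9 and 27.1 RPKM in female WT livers. Male ARE-Del livers had 25.8, 24.8 and 26.1 RPKM, against 32.2, 30.6 and 32.5 RPKM in male WT livers. Genotypes did not overlap within either sex, and the male groups were tight. For Ghr the log2 change was -0.43 ± 0.09 in females (SE, limma adjusted p = 0.00372) and -0.30 ± 0.09 in males (adjusted p = 0.0363). Over both sexes it was -0.37 ± 0.07 (adjusted p = 0.000773), called in all 19 alternatives. Without female ARE-Del 2, the lowest of the 12, the female change was -0.35 (adjusted p = 0.0165). The male call was lost in 7 of 20 alternatives, those that left out any male library or applied no filter, while both scalings made the change larger, at -0.48 and -0.46 in males. As this is bulk tissue, fewer cells of a type and less RNA per cell cannot be told apart. Summed immune markers, 17 genes, ran between 151 and 231 RPKM in female ARE-Del and 38.6 and 67.0 in female WT, and between 106 and 137 in male ARE-Del and 27.3 and 47.3 in male WT. All 12 tested immune markers rose in females (11 without female ARE-Del 2) and 11 of 12 in males, where 25.8% and 19.5% of all genes rose. Among them Cd3g, Cd8a, Gzma and Itgax, at no more than 0.268 RPKM in WT, passed the filter through ARE-Del libraries alone. Nkg7 too needed ARE-Del libraries to pass it, so the count of rising markers is a description only. None of the 17 immune markers was at 0 in a whole group, and their part in the Ghr values was not tested.

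The STAT5 genes differed by small amounts. Stat5b, the main STAT5 of liver, had 6.56, 5.72 and 6.42 RPKM in female ARE-Del and 5.36, 4.97 and 5.24 RPKM in female WT. Male ARE-Del livers had 5.14, 4.72 and 5.54 RPKM and male WT livers 4.10, 4.49 and 4.52 RPKM. Every ARE-Del library stood above the WT libraries of its sex, by a small margin. The log2 change was 0.22 ± 0.07 in females (SE, limma adjusted p = 0.0317) and 0.19 ± 0.07 in males (adjusted p = 0.077), and the female value was 0.28 (adjusted p = 0.0182) without female ARE-Del 2. The female call did not hold on other scales, at 0.06 (adjusted p = 0.456) by median-of-ratios and 0.09 (adjusted p = 0.314) by quantile normalization. Over both sexes the Stat5b change was 0.21 ± 0.05 (limma adjusted p = 0.00588), a call also lost on both of these scales. Stat5a, the less abundant paralogue, ran between 0.828 and 1.45 RPKM over all 12 libraries, with overlapping genotypes. Its change was -0.01 (95% interval -0.18 to 0.15, adjusted p = 0.902) in females, 0.04 without female ARE-Del 2, and -0.03 (95% interval -0.20 to 0.13, adjusted p = 0.789) in males, and it passed in females only after quantile normalization, at -0.20 (adjusted p = 0.0389). Stat5b exceeded Stat5a 5.21 ± 0.43-fold in female ARE-Del and 4.30 ± 0.68-fold in female WT, and 5.72 ± 0.87-fold in male ARE-Del and 4.597 ± 0.07-fold in male WT (SD, n = 3 each).

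Reads of the pair could be shared in part. In GENCODE M21 transcripts, 608 windows of 50 bases were identical between the paralogues, 14.7% of Stat5a and 11.1% of Stat5b windows, and how such reads were counted is not given in the sources used here. An exon of Stat5a also overlaps Stat3 on the opposite strand. Stat3 rose in both sexes (log2 change 0.76 in females and 0.42 in males, the male call being lost on both other scales) and strand use is not given, so reads of the overlapping stretch cannot be assigned to either gene.

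Igf1 and Igfals are the hepatic products on which the endocrine arm of the axis rests. Igf1 had 33.3, 23.2 and 34.8 RPKM in female ARE-Del livers and 36.7, 28.5 and 44.7 RPKM in female WT livers. In males ARE-Del livers had 28.0, 32.7 and 26.8 RPKM and WT livers 29.7, 29.4 and 24.8 RPKM. The groups overlapped in both sexes. The log2 change was -0.26 (95% interval -0.63 to 0.12, limma adjusted p = 0.281) in females and 0.06 (95% interval -0.32 to 0.44, adjusted p = 0.837) in males. Without female ARE-Del 2 the female value was -0.08. By median-of-ratios it was -0.44 in females (adjusted p = 0.0374) and -0.12 in males, so a fall in females passed on that scale alone.

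Igfals, whose product holds IGF-1 in its large circulating complex, had 26.8, 15.8 and 22.8 RPKM in female ARE-Del and 29.4, 28.5 and 27.8 RPKM in female WT. Male ARE-Del livers had 14.7, 14.1 and 12.3 RPKM and male WT livers 17.9, 18.8 and 14.7 RPKM. Female genotypes did not overlap, and male ones met at 14.7 RPKM. Neither sex passed alone, with log2 changes of -0.41 ± 0.15 in females (SE, limma adjusted p = 0.0648) and -0.30 ± 0.15 in males (adjusted p = 0.19). The female change was -0.20 (adjusted p = 0.219) without female ARE-Del 2. Over both sexes the change was -0.35 ± 0.11 (adjusted p = 0.0211), called in all 19 alternatives, with -0.25 (adjusted p = 0.0232) without female ARE-Del 2. On the median-of-ratios scale each sex passed, at -0.59 in females (adjusted p = 0.00703) and -0.47 in males (adjusted p = 0.0341).

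Ratios between members were computed from the values above, so they are not separate support. The gap in Igfbp1 over Igf1 follows from that of Igfbp1 itself. Igfbp1 over Igf1 was 2.35, 2.78 and 1.43 in female ARE-Del and 0.111, 0.384 and 0.212 in female WT. It was 1.10, 0.911 and 2.76 in male ARE-Del and 0.225, 0.376 and 0.192 in male WT. Thus 5 of 6 ARE-Del livers held more Igfbp1 than Igf1 transcript per length, and male ARE-Del 2 nearly as much, while in every WT liver Igf1 exceeded Igfbp1. Igfbp3 over Igfals was 0.205 ± 0.016 in female ARE-Del and 0.111 ± 0.019 in female WT, and 0.389 ± 0.111 in male ARE-Del and 0.143 ± 0.024 in male WT (SD, n = 3 each). No library of one genotype reached the range of the other in either ratio within a sex.

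The feedback genes Socs2 and Cish, both direct STAT5 targets, varied widely between livers of the same group. Cish had 1.68, 1.42 and 3.20 RPKM in female ARE-Del and 1.52, 0.819 and 1.79 RPKM in female WT. Male ARE-Del livers had 3.69, 5.40 and 0.685 RPKM and male WT livers 5.39, 3.82 and 3.72 RPKM. Male ARE-Del 3 was the lowest of all 12 libraries and male ARE-Del 2 the highest. The log2 change was 0.36 (95% interval -0.48 to 1.21, limma adjusted p = 0.513) in females and -0.51 (95% interval -1.36 to 0.34, adjusted p = 0.382) in males, and the male value was 0.06 without male ARE-Del 3. The female value was 0.52 (adjusted p = 0.408) without female ARE-Del 2. Socs2 had 2.47, 0.988 and 3.34 RPKM in female ARE-Del and 1.29, 0.652 and 2.56 RPKM in female WT. In males it had 1.79, 2.10 and 0.775 RPKM in ARE-Del and 2.70, 1.13 and 0.422 RPKM in WT. Its change was 0.38 (95% interval -0.45 to 1.22, adjusted p = 0.484) in females, and 0.70 (adjusted p = 0.204) without female ARE-Del 2, and 0.15 (95% interval -0.68 to 0.99, adjusted p = 0.811) in males. Over the 12 libraries the highest value was 7.88 times the lowest for Cish and 7.92 times for Socs2, against 1.60 to 2.77 times for the members other than these and Igfbp1, at 19.3 times. Exons of Cish overlap Gm17040 and Gm17041 on the opposite strand in GENCODE M21, whose reads cannot be told apart here.

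Within every group, Cish, Socs2 and Igf1 placed the 3 livers in the same order. In female ARE-Del that order was 3, 1, 2, high to low, and it was 3, 1, 2 in female WT, 2, 1, 3 in male ARE-Del and 1, 2, 3 in male WT. No other member shared it in all 4 groups. Of the 10567 tested genes other than Cish, 39 did, 0.369%, with Socs2 and Igf1 among them. This order was noticed after the values were seen and is given as a description. On the log2 scale, male ARE-Del 3 deviated from its group mean by -1.13 for Cish, -0.49 for Socs2 and -0.11 for Igf1, and by 0.84 for Igfbp1, 0.51 for Igfbp2 and 0.23 for Igfbp3. Female ARE-Del 2, the library without Xist, deviated by -0.31, -0.64 and -0.36 for Cish, Socs2 and Igf1, and by -0.41 for Igfals. Male WT 1, at the other end, deviated by 0.28, 0.72 and 0.09. The gene most like Cish over the 12 libraries was Onecut1, a liver transcription factor (Pearson r = 0.93), and the one most like Socs2 was Casp8 (r = 0.88).

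**Figure D4:**
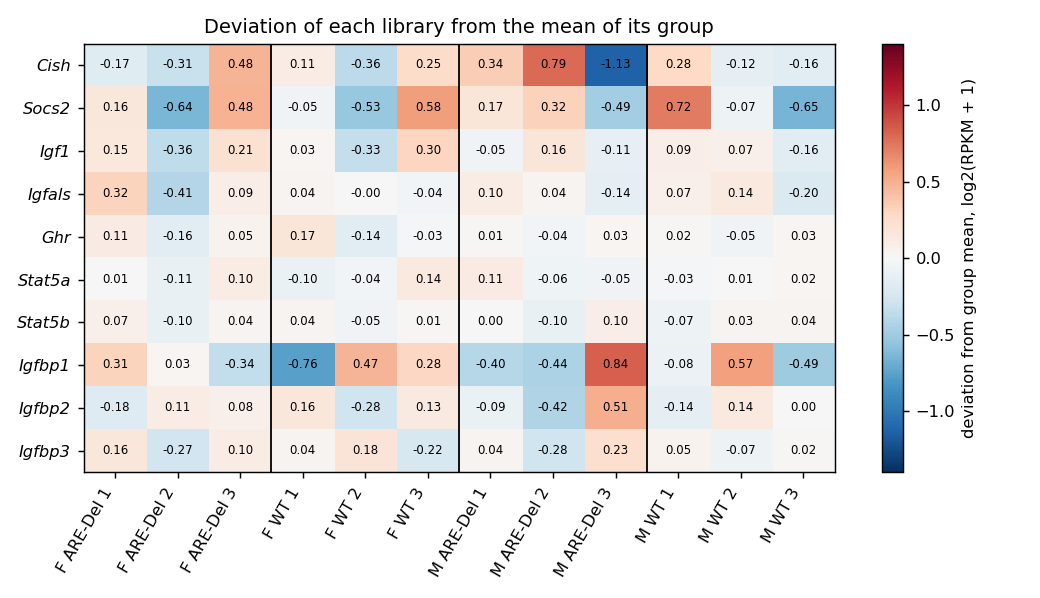
Deviation of each library (columns) from the mean of its group for each gene (rows), in log2(RPKM + 1), with red above and blue below the group mean; F and M stand for female and male. The Cish, Socs2 and Igf1 rows share their order within each of the 4 groups, with Cish down to -1.13 in male ARE-Del 3.

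The promoter windows of Cish and Igfals are shown for the STAT motif TTCNNNGAA, which reads the same on both strands and was found in 8.3% of all 32851 RefSeq windows. Among the 15 windows of the members it stood in 3, of 2 genes. The Cish window (chr9:107296409-107296708, plus strand, GRCm38.p6) held it at +1 to +9 and at +12 to +20, close together. Of the Igfals windows, the one on chr17:24877594-24877893 held it at -236 to -228 and the one on chr17:24877981-24878280 at -58 to -50, both on the plus strand. Capitals mark the matches.
Cish: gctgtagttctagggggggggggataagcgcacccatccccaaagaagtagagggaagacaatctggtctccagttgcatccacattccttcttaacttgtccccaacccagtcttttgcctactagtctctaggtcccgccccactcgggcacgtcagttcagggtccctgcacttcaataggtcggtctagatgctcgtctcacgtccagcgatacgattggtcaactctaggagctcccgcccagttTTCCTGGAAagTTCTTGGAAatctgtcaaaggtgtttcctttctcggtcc
Igfals, upstream window: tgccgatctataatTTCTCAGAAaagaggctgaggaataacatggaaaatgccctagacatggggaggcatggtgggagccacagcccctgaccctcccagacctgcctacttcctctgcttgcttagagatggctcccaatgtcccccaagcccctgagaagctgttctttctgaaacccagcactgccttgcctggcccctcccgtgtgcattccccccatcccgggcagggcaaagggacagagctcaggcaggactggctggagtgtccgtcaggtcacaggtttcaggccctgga
Igfals, downstream window: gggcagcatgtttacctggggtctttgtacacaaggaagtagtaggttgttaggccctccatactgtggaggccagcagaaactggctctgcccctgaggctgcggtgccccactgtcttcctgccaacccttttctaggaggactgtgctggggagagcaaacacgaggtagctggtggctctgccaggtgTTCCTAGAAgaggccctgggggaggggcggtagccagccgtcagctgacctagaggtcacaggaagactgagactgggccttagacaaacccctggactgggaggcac
The windows of Ghr, Igf1, Igfbp1, Igfbp2, Igfbp3, Stat5a and Stat5b held no such letters, which says nothing about STAT5 at sites elsewhere.

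Between the sexes, Igfals was the member called in both genotypes. It averaged 21.8 ± 5.57 RPKM in female ARE-Del and 13.7 ± 1.24 RPKM in male ARE-Del, and 28.6 ± 0.77 RPKM in female WT and 17.1 ± 2.18 RPKM in male WT (SD, n = 3 each). The log2 difference, female minus male, was 0.61 ± 0.15 in ARE-Del (SE, limma adjusted p = 0.0147) and 0.71 ± 0.15 in WT (adjusted p = 0.0124). Neither pair of groups overlapped, and without female ARE-Del 2 the ARE-Del difference was 0.81. It did not pass without female ARE-Del 1 (0.45, adjusted p = 0.0585), female ARE-Del 3 (0.56, adjusted p = 0.0603) or male ARE-Del 3 (0.54, adjusted p = 0.0516). Leaving out male WT 3 moved the WT difference to 0.61 (adjusted p = 0.0516). In WT 1 member was called, higher in females, where 6.72% of all tested genes were higher, 3.04% lower and 9.76% passed in all. In ARE-Del 2 were called higher and 1 lower in females, where 16.4% of genes were higher, 6.02% lower and 22.4% passed in all.

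The other members called in ARE-Del were Stat5b, higher in females (0.24 ± 0.07, limma adjusted p = 0.032), and Ghr, lower in females (-0.32 ± 0.09, adjusted p = 0.0287). The same differences in WT were 0.21 (adjusted p = 0.096) and -0.19 (adjusted p = 0.216), and the Ghr call in ARE-Del was lost without female ARE-Del 2, at -0.24 (adjusted p = 0.0986), or without any other library of the ARE-Del groups but female ARE-Del 1. The Stat5b call in ARE-Del was lost without female ARE-Del 1 or 3 or male ARE-Del 1 or 2, by median-of-ratios (0.17, adjusted p = 0.061) and in a fit of those 2 groups alone. Cish lay lower in all 3 female WT livers than in all 3 male WT livers, with a mean of 1.38 ± 0.50 and 4.31 ± 0.94 RPKM, but its difference of -1.17 ± 0.39 did not pass (adjusted p = 0.083). It passed in 3 of 20 alternatives, with adjusted p = 0.0035 when the fit held those 2 groups alone. In ARE-Del the Cish groups overlapped and the difference was -0.30 (adjusted p = 0.635). The genotype effect differed between the sexes for 0 of the 10 members by limma, beside 0.568% of all tested genes. At an unadjusted p under 0.05 the count was 1, Igfbp3, and for Cish the difference of effects was 0.87 ± 0.55 (adjusted p = 0.641).

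Liver genes known to follow the sex-specific growth hormone pattern were sex-biased in both genotypes. All 16 tested male-biased liver genes were lower in females in ARE-Del and in WT, led in WT by Cyp4a12a, an arachidonic acid hydroxylase, with a female minus male log2 difference of -6.37 in ARE-Del and -6.67 in WT. Hsd3b5, a steroid dehydrogenase, stood at -5.69 in ARE-Del and -5.48 in WT, and Cyp4a12b at -5.41 in ARE-Del and -5.24 in WT. Of 16 tested female-biased genes, 15 were higher in females in ARE-Del and 16 in WT. The cytochrome P450 gene Cyp3a41a had a difference of 7.52 in ARE-Del and 8.72 in WT, the P450 gene Cyp2a4 one of 7.07 in ARE-Del and 7.34 in WT, and A1bg one of 6.14 in ARE-Del and 7.22 in WT. Within females, 7 of the 16 female-biased genes fell in ARE-Del and 1 rose, and without female ARE-Del 2 these counts were 6 and 1, where 5.53% of all genes fell and 25.8% rose. Of the 16 male-biased genes, 4 rose and 3 fell in female ARE-Del, or 3 and 3 without female ARE-Del 2. These lists were compiled from genes known for their bias, so the bias in WT is not a finding.

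The female and male effects differed by limma for 1 of the 16 male-biased and 2 of the 16 female-biased genes, beside 0.568% of all tested genes, and these 3 genes were named after their values were seen. Serpina1e, an alpha-1-antitrypsin gene, averaged 1173 ± 222 RPKM in female ARE-Del and 67.3 ± 27.7 RPKM in female WT, and 3635 ± 1056 RPKM in male ARE-Del and 2389 ± 1072 RPKM in male WT (SD, n = 3 each). Its log2 change was 4.17 ± 0.38 in females (SE, limma adjusted p = 4.754e-06) and 0.68 ± 0.38 in males (adjusted p = 0.23), and as the gene has closely similar copies, its reads may be shared. The P450 gene Cyp2b13 averaged 44.2 ± 9.38 RPKM in female ARE-Del and 95.96 ± 3.38 RPKM in female WT, and the sulfotransferase gene Sult3a1 56.4 ± 5.17 RPKM in female ARE-Del and 98.9 ± 18.3 RPKM in female WT (SD, n = 3 each). Both were at or near 0 in the 6 male libraries, so a fall could hardly show there.

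Other genes of the pathway were read from a list of 36 symbols, of which 34 were in the table and 24 passed the filter. By limma 9 rose and 1 fell in females, 7 rose in males and 11 rose over both sexes. Their median log2 change was 0.12, 0.15 and 0.16, above the 0.09, 0.10 and 0.09 of all tested genes, of which 25.8%, 19.5% and 35.9% rose. Under median-of-ratios scaling the counts were 5 rising and 3 falling in females and 3 and 1 in males, and after quantile normalization 5 and 4 in females and 2 and 1 in males. Over both sexes they were 8 and 3 by median-of-ratios and 7 and 4 by quantile normalization. Without female ARE-Del 2, 9 rose in females and the fall, that of Igfbp5, did not pass. The rising genes in females and over both sexes include Htra1, which passed the filter through ARE-Del libraries alone.

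The phosphatase genes Ptpn6 and Ptpn1, whose products act on JAK-STAT signalling, rose by 1.29 ± 0.10 and 1.07 ± 0.08 in females and by 0.79 ± 0.10 and 0.63 ± 0.08 in males. Ptpn6, which leukocytes express strongly, averaged 15.1 RPKM in female ARE-Del and 5.61 in female WT, and 7.67 in male ARE-Del and 4.04 in male WT. Socs3, a feedback inhibitor of STAT3 signalling, rose in females (0.78 ± 0.15, limma adjusted p = 0.00189), with 0.42 ± 0.15 in males (adjusted p = 0.0686). Jak2, the kinase bound to Ghr, rose by 0.24 ± 0.07 in females (adjusted p = 0.0141) and 0.22 ± 0.07 in males (adjusted p = 0.0325), but neither call held under median-of-ratios scaling (0.12 in females and 0.11 in males) or after quantile normalization (0.07 in each), and it was named after its values were seen. Immune markers were given with Ghr, and their part in these changes was not tested.

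Among insulin signalling and IGF-binding genes, Irs2, an insulin receptor substrate that insulin represses, rose by 0.73 ± 0.25 in females (limma adjusted p = 0.0417) and 0.89 ± 0.25 in males (adjusted p = 0.0243). The female call held in 7 of 20 alternatives and the male call in 13 of 20, and female ARE-Del 1 stood apart at 5.41 RPKM, beside 2.40 and 1.89 RPKM in the other two. Igfbp7 rose in males (0.50 ± 0.15, adjusted p = 0.0289, a call lost on both other scales), with 0.35 ± 0.15 in females (adjusted p = 0.0851). Htra1, which encodes a serine protease that cleaves IGF binding proteins, had 0.875, 0.845 and 0.742 RPKM in female ARE-Del and 0.461, 0.273 and 0.279 RPKM in female WT. It rose in females by 0.45 ± 0.08 (adjusted p = 0.000951), with 0.21 ± 0.08 in males (adjusted p = 0.0812). Its highest WT value, 0.461 RPKM, was under the 0.5 RPKM of the filter, so it was tested through ARE-Del libraries alone. Its test therefore adds no support to these levels. Igfbp5, the other IGFBP of ternary complexes, was the 1 gene that fell in females, with 1.04, 0.663 and 0.619 RPKM in female ARE-Del and 1.27, 2.91 and 1.5 RPKM in female WT. Its change of -0.67 ± 0.20 (adjusted p = 0.0215) was not called without female ARE-Del 2, female ARE-Del 3 or female WT 2, and in males it was -0.05 (adjusted p = 0.87).

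**Figure D5:**
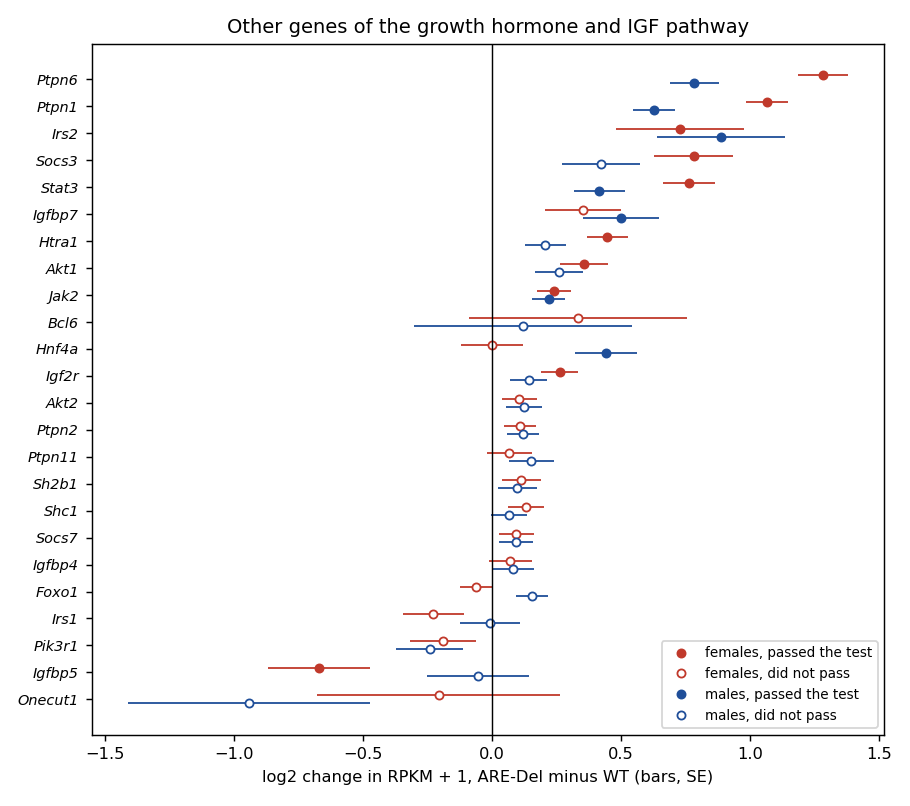
Log2 change in RPKM + 1, ARE-Del minus WT, with bars of 1 SE, for the 24 other pathway genes tested in females and in males; filled points passed the test. Ptpn6 stands at 1.29 in females and 0.79 in males, and Igfbp5 is the 1 filled point left of 0.

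As Igfbp1 is a gene of the fasting and insulin response, 12 other genes of that response were read beside it, of which 11 passed the filter. By limma 1 rose in females, 3 in males and 5 over both sexes, where 25.8%, 19.5% and 35.9% of all tested genes rose. Over both sexes 2 rose under median-of-ratios scaling and 2 after quantile normalization. In males 3 rose and 1 fell by median-of-ratios, and 2 rose after quantile normalization. The median log2 change of the 11 was 0.22 in females, 0.37 in males and 0.23 over both. Pck1, the gluconeogenic enzyme that insulin represses, had 313, 407 and 329 RPKM in female ARE-Del and 183, 264 and 253 RPKM in female WT. In males it had 200, 339 and 335 RPKM in ARE-Del and 87.7, 122 and 105 RPKM in WT. Genotypes did not overlap in either sex, with a change of 1.44 ± 0.21 in males (adjusted p = 0.000505) and 0.59 ± 0.21 in females (adjusted p = 0.0519). Snf1lk, the listed symbol of the fasting-induced kinase gene Sik1, rose by 0.51 ± 0.12 in females (adjusted p = 0.00519, a call lost after quantile normalization) and 0.59 ± 0.12 in males (adjusted p = 0.00346). Ppargc1a, a coactivator of gluconeogenic genes, rose in males (0.43 ± 0.10, adjusted p = 0.00886, a call lost after quantile normalization) and had 0.03 ± 0.10 in females (adjusted p = 0.855). Trib3 (0.46 ± 0.13, adjusted p = 0.0111) and the fatty acid importer gene Cpt1a (0.36 ± 0.11, adjusted p = 0.0188) passed over both sexes only, and on neither other scale. Feeding state at sacrifice is not given in the labels, and its part in these values was not tested.

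Some genes followed the members closely over the 12 libraries, a likeness into which differences between the 4 groups enter. With group means removed, r for the pairs named here ran between 0.71 (Gzma with Igfbp1) and 0.94 (Hs1bp3 with Stat5b). These genes were picked for the highest r among all tested genes. Ghr was most like Car1 and Car3, carbonic anhydrase genes, and the peroxisomal thiolase gene Acaa1b (Pearson r = 0.97, 0.97 and 0.96). Igfbp1 was most like Gzma, the granzyme A gene of cytotoxic lymphocytes (r = 0.96), which rose by 1.43 in females and 1.33 in males. Gzma passed the filter through ARE-Del libraries alone. Igfbp2 was most like Naip5 and the lipoprotein lipase gene Lpl (r = 0.95 and 0.94), and Igfbp3 most like the B cell gene Cd79a (r = 0.96). Stat5b was most like Hs1bp3 (r = 0.98), Igfals like Sh3yl1 (r = 0.94), Igf1 like Usp6nl (r = 0.92) and Stat5a like Bmp10 (r = 0.91).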

How the data were processed

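Liver libraries were made from total RNA with the Illumina TruSeq RNA kit after Trizol extraction, per the labels' protocols. Trimmomatic 0.30, TopHat2 2.0.8, Partek and GenomeStudio 6.6 and the build mm9 are named in the submitters' processing notes, with no role given. The sources used here name neither the counting method nor the use of strand. The deposited unit is RPKM, computed by the authors for 19852 genes in 12 libraries, and read depth is unknown, so counting intervals were not computed.

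From these values, log2(RPKM + 1) was tested with limma 3.58.1 (R 4.3.3, trended empirical Bayes, 4 group means sharing 1 estimate of the spread, no covariate) for 10568 genes with at least 0.5 RPKM in at least 3 libraries. The Benjamini-Hochberg adjustment ran over all 10568 and the threshold was 0.05. Comparisons were ARE-Del minus WT in females, in males and over both, female minus male in each genotype, and the difference of the female and male effects. Groups came from the sample titles. The fit was tested on simulated data. Alternatives were a pseudocount of 0.1, no filter, a filter of 1 RPKM in 6 libraries, median-of-ratios scaling, quantile normalization, no trend, a replicate block, a fit of 2 groups alone, and each library left out. For the gene lists these were added after seeing the data.

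The members and lists were chosen with earlier results of these data known. A further pathway gene is not reported here and was left out of its list. Named from the lists were up to 8 pathway and 5 fasting genes with the largest mean change among those called, the 3 most biased genes of each sex list, and the genes most like each member by Pearson r. Promoter windows are from RefSeq, GRCm38.p6, matched by symbol, and transcript and exon overlaps from GENCODE M21. No mm9 coordinates were used.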

Additional observations from a re-analysis of the deposited data

Results flagged for a closer look

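A difference between the female and the male effect of the ARE-Del allele passed the test for 3 sex-biased liver genes. For Serpina1e the female change minus the male change was 3.49 ± 0.54 on the log2 scale (SE, limma adjusted p = 0.0204), and it passed in 12 of 19 alternatives, ranging between 3.16 and 3.93. For Cyp2b13 the difference was -1.05 ± 0.17 (adjusted p = 0.0277), passing in 9 of 19, and for Sult3a1 it was -0.85 ± 0.16 (adjusted p = 0.0494), passing in 3 of 19. The 3 calls were lost with no filter, with the stricter filter, and without male ARE-Del 2, male WT 1 or male WT 2, among others, and Sult3a1 also without female ARE-Del 2 (-0.85, adjusted p = 0.069). Serpina1e did not pass without female ARE-Del 3 (3.65) or female WT 1 (3.16), and Cyp2b13 not with pseudocount 0.1 or without any 1 female WT library or male WT 3. The sign of the 3 differences was the same under all 19 alternatives.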

How the results depend on the processing

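The count of members that passed held within 1.5 times in females and over both sexes under all alternatives. The members behind it changed on the other scales. In females and over both sexes, Stat5b was lost under median-of-ratios scaling and after quantile normalization. A fall of Igf1 passed there by median-of-ratios, and a fall of Stat5a after quantile normalization. The fall of Igfals in females passed on both scales. In males, where 4 passed, 2 did with no filter and 2 to 4 with 1 library left out. For female minus male in WT, where 1 passed, 2 did under median-of-ratios scaling, 2 after quantile normalization and 2 in a fit of 2 groups alone, and 0 to 2 with 1 library left out, the 0 being without male WT 3. For female minus male in ARE-Del, where 3 passed, 0 to 3 did with 1 library left out, the 0 being without female ARE-Del 3. Over all tested genes, the difference of the female and male effects gave 60 calls, against 14 with pseudocount 0.1, 30 with no filter, 0 with the stricter filter, 106 after quantile normalization, 39 without trend, 32 with the replicate block, and 0 to 74 with 1 library left out, the 0 being without male WT 1. With 1 library left out, gene calls ran between 1259 and 2481 in males (2272 with all, 1259 without male WT 1), 525 and 1116 for female minus male in WT (1031 with all, 525 without male WT 1 and 642 without female WT 1) and 1367 and 2494 in ARE-Del (2370 with all, 1367 without female ARE-Del 3 and 1449 without male ARE-Del 2).

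Values that changed sign were all of changes that had not passed. The male Igf1 change was -0.12 by median-of-ratios and -0.069 after quantile normalization, and -0.023 to 0.12 with 1 library left out, below 0 without male ARE-Del 2 or male WT 3. With 1 library left out, Stat5a ran between -0.065 and 0.055 in females and -0.052 and 0.011 over both sexes, above 0 without female ARE-Del 2 or female WT 3. Cish ran between -0.27 and 0.21 over both sexes (above 0 without female ARE-Del 2 or male ARE-Del 3), -0.90 and 0.058 in males (0.058 without male ARE-Del 3) and -0.86 and 0.0997 for female minus male in ARE-Del (0.0997 without male ARE-Del 2). Male Socs2 ran between -0.18 and 0.51, below 0 without male ARE-Del 2 or male WT 3, and male Igfbp5 between -0.20 and 0.077, above 0 without the same libraries. Ppargc1a in females was -0.082 by median-of-ratios and -0.16 after quantile normalization. Htra1 in males was -0.00027 after quantile normalization. The cause was not tested. With an arm of 2 libraries, the fit pools the spread over groups.

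For same-numbered samples, the correlations of their deviations from group means ran between -0.29 and 0.18, and in no pair of groups were all above 0.1. Each sample of the first group correlated best with its own number in 2, 1, 0 and 0 of 3 cases for the 4 pairs of groups. With 3 samples a group, these values cannot show whether same-numbered samples were linked. With the replicate block the members called were 4 in females, 4 in males and 6 over both sexes, the same counts as without it. With 3 libraries a group and unknown read depth, changes of Socs2 and Cish under about 0.8 on the log2 scale lie within the 95% interval half-width. The threshold on adjusted p can ask for more than that. The Cish difference between the sexes in WT, at -1.17, did not pass (limma adjusted p = 0.083).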
